A study of Homo sapiens with 9 samples.

Results

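A set of 10 genes of the absorptive cell was followed through 9 RNA-Seq libraries of HT-29, an established human colon cancer cell line: *CDX1*, *CDX2*, *VIL1*, *FABP1*, *ALPI*, *ANPEP*, *DPP4*, *SLC26A3*, *SLC5A8* and *CA2*. They were chosen by name as markers of absorptive enterocytes and colonocytes, and they are 10 of the 23284 gene symbols measured. Monolayer cultures received DMSO vehicle alone (0 µM, the control), 5 µM or 10 µM 5-Aza-deoxycytidine (5-Aza) for 5 days, with 3 cultures in each group. 5-Aza is a cytidine analog that traps DNA methyltransferases after its incorporation into DNA and so lowers DNA methylation in dividing cells. The vehicle reached the control cultures as well, and all groups are a single tumour line with no normal colon cells beside it. Methylation was not analysed here. All 12 epithelial and colorectal markers used to check the line, among them *EPCAM*, *CDH1* and *KRT20*, were above 0 in the control.

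Absorptive cells line the villi of the small intestine and the surface of the colon, where they digest, take up and transport nutrients, ions and water. *CDX1* and *CDX2* are the homeobox transcription factors that hold intestinal identity. *VIL1* encodes villin, the actin-bundling protein of microvilli, and *ALPI* (intestinal alkaline phosphatase), *ANPEP* (aminopeptidase N) and *DPP4* (dipeptidyl peptidase) encode enzymes of the brush border membrane. *FABP1* encodes the liver-type fatty acid binding protein of the enterocyte cytoplasm. *SLC26A3* exchanges chloride for bicarbonate, *SLC5A8* carries short-chain fatty acids into colonocytes and is known for silencing by DNA methylation in colon cancer, and *CA2* encodes a cytosolic carbonic anhydrase.

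DNA methylation sits mostly at CG dinucleotides, so the bases upstream of the start of those members whose results differ most are given here. They are the 250 bases before the annotated start in RefSeq (GRCh38.p14), 5′ to 3′ on the gene's strand, with each CG in capitals. Of the 10 members, 7 matched an entry, and *ANPEP* had 2 starts. By an exact match at 1 place each, the *SLC5A8* stretch lies at chr12:101604017-101604266 of GRCh37 (minus strand), that of *ALPI* at chr2:233320613-233320862 (plus strand), those of *ANPEP* at chr15:90358085-90358334 and chr15:90349860-90350109 (minus strand), and that of *CDX2* at chr13:28543453-28543702 (minus strand).
SLC5A8: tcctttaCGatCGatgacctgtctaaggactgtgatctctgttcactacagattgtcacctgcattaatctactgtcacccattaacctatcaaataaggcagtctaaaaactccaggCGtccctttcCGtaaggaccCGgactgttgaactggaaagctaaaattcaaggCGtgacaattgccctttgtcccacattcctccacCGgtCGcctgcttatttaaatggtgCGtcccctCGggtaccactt
ALPI: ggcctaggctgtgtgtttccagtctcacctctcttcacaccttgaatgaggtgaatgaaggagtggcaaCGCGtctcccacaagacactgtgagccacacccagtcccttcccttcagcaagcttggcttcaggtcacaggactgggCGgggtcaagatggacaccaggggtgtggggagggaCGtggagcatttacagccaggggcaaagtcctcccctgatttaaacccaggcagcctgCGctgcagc
ANPEP upstream start: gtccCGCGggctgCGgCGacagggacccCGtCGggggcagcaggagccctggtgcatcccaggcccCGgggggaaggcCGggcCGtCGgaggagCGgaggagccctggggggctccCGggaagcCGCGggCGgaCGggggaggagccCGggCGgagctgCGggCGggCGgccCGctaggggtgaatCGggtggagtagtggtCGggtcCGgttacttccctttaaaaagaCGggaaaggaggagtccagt
ANPEP downstream start: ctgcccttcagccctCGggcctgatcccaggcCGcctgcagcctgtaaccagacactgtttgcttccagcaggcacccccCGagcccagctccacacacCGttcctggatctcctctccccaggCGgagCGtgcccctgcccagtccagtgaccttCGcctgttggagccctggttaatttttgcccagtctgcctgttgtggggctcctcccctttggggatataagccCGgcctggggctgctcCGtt
CDX2: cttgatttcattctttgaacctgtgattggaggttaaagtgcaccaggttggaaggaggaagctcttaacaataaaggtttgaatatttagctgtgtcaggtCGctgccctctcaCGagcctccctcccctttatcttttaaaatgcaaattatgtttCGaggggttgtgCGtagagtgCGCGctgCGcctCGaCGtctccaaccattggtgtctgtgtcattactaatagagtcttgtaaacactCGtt

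These stretches held 10 CG for *SLC5A8*, 5 for *ALPI*, 26 and 9 for the upstream and downstream starts of *ANPEP*, and 10 for *CDX2*. Over all 35116 RefSeq entries the median was 11 and the quartiles were 3 and 23, so only the upstream *ANPEP* start and *DPP4* (26) stood above the upper quartile. *FABP1* had 4 and *SLC26A3* had 1. The letters TATAAA on either strand were found in *FABP1* alone of the members (10.7% of all entries held them). The letters TTTAT on either strand, which overlap the reverse complement of TATAAA, were found in *CDX2* and *FABP1* (32.7% of all entries). These counts describe letters only, and whether any of these CG was methylated was not measured here. Bases after the start were not counted, for *SLC5A8* or any other member, so the CG content there is not described.

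**Figure D1:**
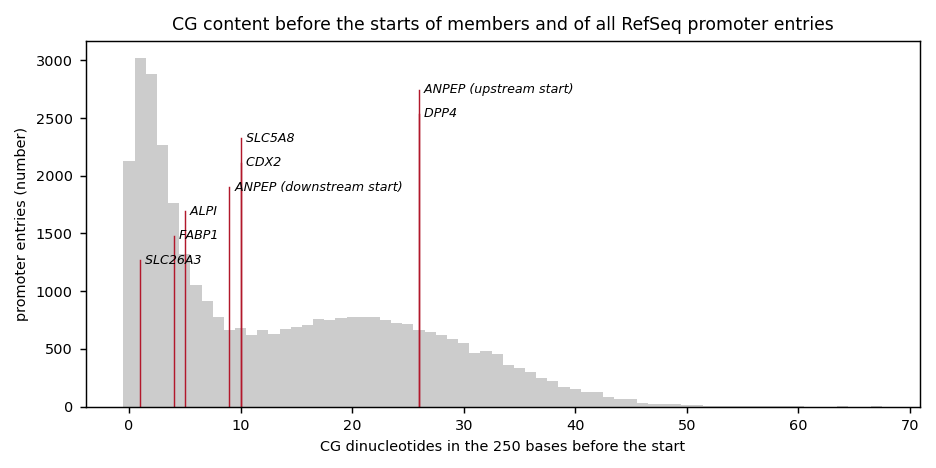
Number of RefSeq promoter entries (vertical axis) by the number of CG dinucleotides in the 250 bases before the start (horizontal axis), with the 8 entries of the members as red lines. The upstream *ANPEP* start and *DPP4* sit at 26, above the upper quartile of 23, and *SLC26A3* at 1.

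The values are FPKM (fragments per kilobase of transcript, scaled to the library's size), which are levels scaled by length. In short genes few fragments give a high value, and 1 fragment of a gene of 110 nucleotides was worth 965536 to 2484690 FPKM. Levels are therefore compared between genes only roughly. A library summed to between 3.69e+09 and 5.91e+09, far above what the definition gives, so an FPKM is read here as a relative level. Low values step in whole fragments, and from these steps the libraries were estimated to hold between 11846172 and 32391473 fragments in genes. The shallowest was 10 µM replicate 1, which also had the lowest FPKM sum. Each member stood on 1 entry, so that no values were summed for it. Relative to the control, the median log2 difference over 15278 genes above 0 in every library was -0.04 at 5 µM and -0.24 at 10 µM, and it was -0.22 between the doses, and the differences given here stand beside those shifts. In a bulk library, fewer cells of a type and less RNA per cell cannot be told apart.

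In the control, the members ranged from well above the median gene to none at all. The level of *VIL1* was 787989 ± 62530 FPKM (SD, n = 3) and that of *DPP4* was 339865 ± 7631. Next came *CDX2* (57123 ± 5579) and *CA2* (48867 ± 4403), whose replicates overlapped each other. *CDX1* (3996 ± 500) and *ANPEP* (1070 ± 743) were far lower. The median over genes above 0 was between 69443.9 and 78724.1 FPKM in these 3 libraries. Thus only *VIL1* and *DPP4* lay above it, and *CDX2* and *CA2* lay just below. *ALPI* and *SLC5A8* were listed at 0 in every control library.

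At 5 µM 5-Aza, *ANPEP*, *ALPI* and *CDX1* were called up over the control and no member was called down. That is 3 of the 9 members tested, against 14.1% of all 20051 tested genes called up and 2.17% called down. Calls needed an adjusted p no higher than 0.05 in limma (Benjamini-Hochberg, over all tested genes) together with a log2 difference above 1 or below -1, on log2(FPKM + 1). Since 1 fragment of a member is worth more than 10 FPKM, this scale overstates the log2 difference of genes with libraries at 0, and such values are given as they came from the fit. Their p-values depend on the scale as well. A group of 3 zeros has no spread, while a single 0 among higher values gives a wide one. Thus the transporter *SLC10A2*, with 0 control fragments and 6 at 5 µM, was called (adjusted p = 0.00251). The hydrolase *ACE*, with 11 and 342 fragments and 1 control library at 0, was not (adjusted p = 0.0642). Without the limit on size, 7 of the 9 members passed, against 39% of all genes. The median log2 difference of the 9 was 0.90, and that of all tested genes was 0.14. *SLC5A8* could not be tested, since it was listed at 0 throughout.

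At 10 µM, 3 of 9 members were again called against the control. *ANPEP* and *ALPI* were called up (4.07% of all 18928 tested genes were) and *CDX2* was called down (3.4% were, or 644 genes, and 284 genes with median-of-ratios scaling), and these same 3 of 9 passed without the limit on size, against 15.1% of all genes. The median of the 9 was -0.36, beside -0.15 over all genes. Between the doses, only *ANPEP* was called, lower at 10 µM than at 5 µM, where 4.82% of all 20085 tested genes were called down and 0.129% up. No other member passed without the limit on size (6.17% of all genes did), and the medians were -1.02 for the 9 members and -0.31 for all genes. The comparisons share samples: both doses were set against the same 3 control libraries, and the 5 µM libraries serve in 2 of the 3 comparisons. For a single gene, the exact permutation test of 3 against 3 libraries (2-sided) cannot go below p = 0.1, and it was at 0.1 wherever the groups did not overlap.

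**Figure D2:**
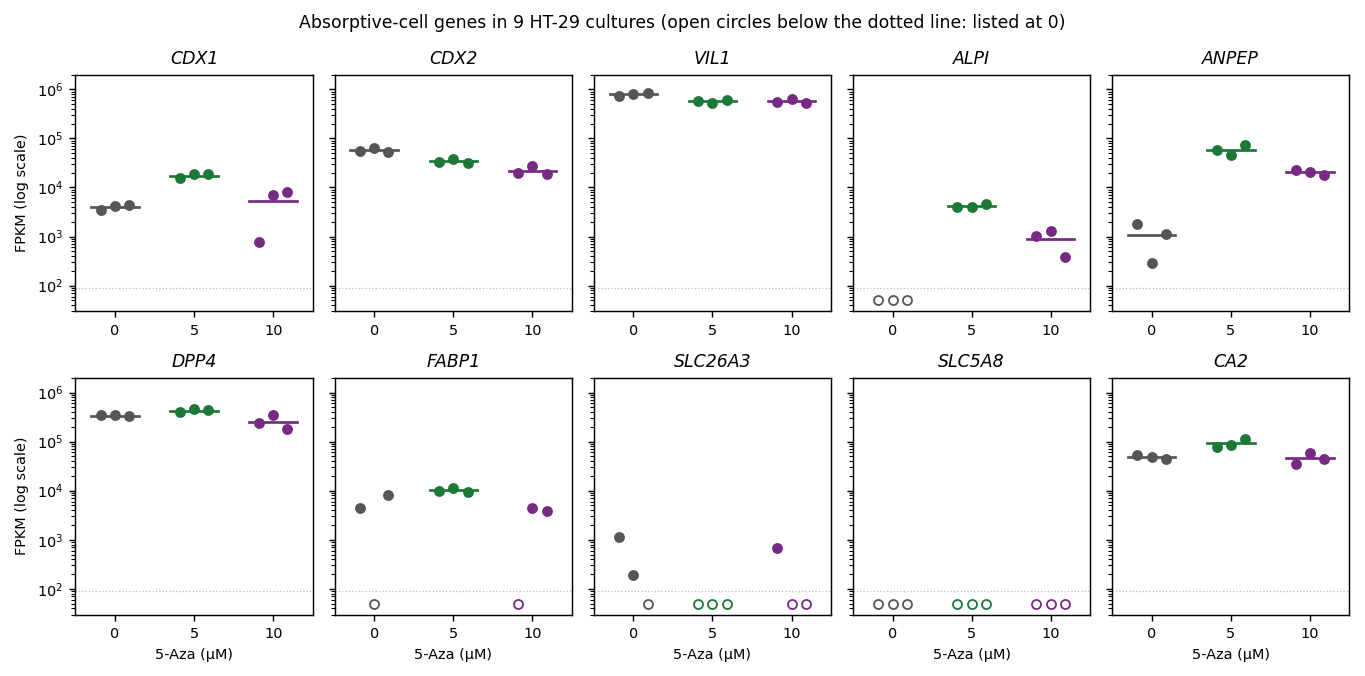
FPKM of the 10 members (vertical axis, log scale) in each library by 5-Aza dose (horizontal axis, µM), one point per culture with a bar at the group mean for groups with every library above 0. Open circles under the dotted line are libraries listed at 0, and the 5 µM points of *ANPEP* sit between 46382.8 and 73694.3 FPKM, above every control and 10 µM point.

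The 2 homeobox genes differed in their course. *CDX1* (chr5:149546341-149564121 of GRCh37, plus strand) had 3424, 4211 and 4352 FPKM in control replicates 1 to 3 and 15250, 18402 and 19007 at 5 µM. The groups did not overlap, and the mean was 4.39 times higher at 5 µM (log2 difference 2.14, SE 0.21, adjusted p = 0.00073 in limma). At 10 µM the values were 770, 7063 and 8048 FPKM, so that 2 libraries lay above every control value and replicate 1 lay below all of them. That replicate's value rests on 2 fragments, while the other 10 µM libraries had 29 and 28 and the 5 µM libraries 75 to 100. The log2 difference from the control was -0.17 (SE 0.89, adjusted p = 0.912), and it was 0.92 (adjusted p = 0.151) without replicate 1. It was also 0.07 with median-of-ratios scaling and 0.02 with a pseudocount of 1000. The call at 5 µM was lost when all 9 libraries were fitted together (adjusted p = 0.0747).

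*CDX2* (chr13:28535055-28543452, minus strand) was lower at each dose than in the control. Its level was 55631, 63297 and 52441 FPKM in the control, 32318, 38847 and 32150 at 5 µM, and 20203, 27700 and 18652 at 10 µM. No library of one dose overlapped those of another, and the order ran from the control down to 10 µM. At 5 µM it fell within 2-fold (log2 difference -0.73, SE 0.12, adjusted p = 0.00513). At 10 µM the mean was 0.388 times that of the control (log2 difference -1.38, SE 0.20, adjusted p = 0.00996). That call did not hold without control replicate 2 (-1.31, adjusted p = 0.0505), and the step from 5 to 10 µM did not pass (-0.65, SE 0.21, adjusted p = 0.121). The fragments behind these levels numbered between 72 and 314 per library.

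Set against *CDX2* in the same library, *CDX1* stood at 0.0615, 0.0665 and 0.083 in the control and at 0.472, 0.474 and 0.591 at 5 µM. At 10 µM this ratio of FPKM was 0.0381, 0.255 and 0.432, the first again in replicate 1. The ratio was chosen after the values were seen and is a description. Over all 9 libraries, the 3 genes whose log2 levels followed *CDX2* most closely among 18605 genes were *ITPKB* (Pearson r = 0.993), *TOX3* (0.992) and *PIP5K1B* (0.992). Part of such likeness lies in the 3 doses that all genes share. *TOX3* went from a mean of 238504 FPKM in the control to 146533 at 5 µM and 90603 at 10 µM. *SLC5A8* has no such neighbours because it does not vary.

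Villin stayed the most abundant member at every dose. *VIL1* (chr2:219283844-219318018, plus strand) had 718165, 806989 and 838813 FPKM in the control, 579218, 521039 and 609716 at 5 µM, and 546899, 646762 and 522750 at 10 µM. Every treated library was below every control library, and the doses overlapped each other. It fell at 5 µM within 2-fold (log2 difference -0.47, SE 0.09, adjusted p = 0.00907). The difference at 10 µM was nearly the same size, -0.46 (SE 0.14, adjusted p = 0.0687), and did not pass. Between the doses it was 0.00 (SE 0.14, adjusted p = 0.995). The last part of *VIL1* overlaps *USP37* on the opposite strand, and reads of both genes cannot be told apart where the library strand is not stated.

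*ANPEP* was the 1 member called in all 3 comparisons. Aminopeptidase N, whose gene lies at chr15:90328126-90358633 (minus strand), had 1774, 294 and 1143 FPKM in the control, resting on 8, 2 and 11 fragments. At 5 µM it had 58153, 46383 and 73694 FPKM, and at 10 µM 22688, 20652 and 17988. All libraries of each dose lay above all control libraries, and the 5 µM libraries lay above those of 10 µM. The mean was 55.5 times the control's at 5 µM (log2 difference 6.11, SE 0.67, adjusted p = 0.00102) and 19.1 times at 10 µM (4.59, SE 0.67, adjusted p = 0.00979). The 10 µM mean was 0.344 times that of 5 µM (-1.52, SE 0.21, adjusted p = 0.00988). That last call was lost without 5 µM replicate 1 (adjusted p = 0.0559) or replicate 3 (adjusted p = 0.0612), and with all 9 libraries in one fit (adjusted p = 0.135). As a share of *VIL1* in the same library, *ANPEP* was between 0.000364 and 0.00247 in the control, between 0.089 and 0.121 at 5 µM, and between 0.0319 and 0.0415 at 10 µM.

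Intestinal alkaline phosphatase was read only in treated cultures. *ALPI* (chr2:233320835-233325463, plus strand) was listed at 0 in all 3 control libraries. It had 3933, 3996 and 4691 FPKM at 5 µM, from 29, 28 and 37 fragments, and 1027, 1300 and 383 FPKM at 10 µM, from 4, 8 and 2 fragments. The 3 groups did not overlap. A floor of 3 fragments over the control group corresponds to 210.7 FPKM. The observed mean was 19.97 times that floor at 5 µM and 4.287 times at 10 µM. These ratios do not cover the spread of the treated libraries, so they are not lower limits of the change. Both calls passed in limma (adjusted p = 0.000291 and 0.0115), but at 10 µM the log2 difference was 0.90 with a pseudocount of 1000, under the limit. The drop from 5 to 10 µM did not pass (ratio of means 0.215, log2 difference -2.39, SE 0.56, adjusted p = 0.0548). *ALPI* shares near-identical stretches with *ALPP* and *ALPPL2*, and how the fragments were divided among the copies is uncertain.

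*DPP4* (chr2:162848755-162930904, minus strand) was the second most abundant member. It had 341641, 346451 and 331502 FPKM in the control and 392598, 460368 and 431061 at 5 µM. The groups did not overlap, and the rise was small (log2 difference 0.33, SE 0.07, adjusted p = 0.0155). It did not pass with all 9 libraries in one fit (adjusted p = 0.253) or without 5 µM replicate 3 (adjusted p = 0.0543). At 10 µM the spread was wider, with 241103, 342909 and 178499 FPKM, and replicate 2 lay within the control range. Neither the difference from the control (-0.47, SE 0.23, adjusted p = 0.18) nor that from 5 µM (-0.80, SE 0.24, adjusted p = 0.0997) passed. The start of *DPP4* overlaps the noncoding gene *DPP4-DT* on the opposite strand.

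*CA2* (chr8:86376197-86393722, plus strand) stood higher at 5 µM than at either other dose. Carbonic anhydrase 2 had 53006, 49356 and 44240 FPKM in the control, 77233, 87016 and 111350 at 5 µM, and 34687, 59840 and 43179 at 10 µM. Libraries of the control and of 10 µM overlapped, and all 5 µM libraries lay above both. The mean rose to 1.88 times the control's (log2 difference 0.90, SE 0.15, adjusted p = 0.00527), just inside 2-fold. Against the control at 10 µM the log2 difference was -0.12 (SE 0.22, adjusted p = 0.702), and it was 0.12 with median-of-ratios scaling and 0.06 without 10 µM replicate 1. The mean at 10 µM was 0.5 times that at 5 µM (-1.02, SE 0.24, adjusted p = 0.0539), which missed the threshold. *CA2* overlaps *CA3-AS1* on the opposite strand at its start.

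The remaining members gave few fragments or none. *FABP1* (chr2:88422501-88427581, minus strand) had 4364, 0 and 8175 FPKM in the control, 9978, 11455 and 9327 at 5 µM, and 0, 4346 and 3847 at 10 µM. All 5 µM libraries lay above all others, yet the control values rest on 2, 0 and 8 fragments. The mean at 5 µM was 2.45 times that of the control. The log2 difference of 4.96 (SE 3.36, adjusted p = 0.282) was set by the control library at 0, being 0.77 without it and up to 7.27 without control replicate 3, and no comparison passed. *SLC26A3* (chr7:107405912-107443670, minus strand) had 1137, 188 and 0 FPKM in the control, 0 in all 5 µM libraries, and 671, 0 and 0 at 10 µM. These are 5, 0 and 3 fragments per group, and a count of 0 at 5 µM allows a level of up to 117.4 FPKM over the group. The log2 difference at 5 µM was -5.91 (SE 2.70, adjusted p = 0.128) and was not called, except in the fit without control replicate 3, the library at 0 (-8.86). Its size depends on the pseudocount, being -0.45 with a pseudocount of 1000.

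*SLC5A8* (chr12:101549271-101604016, minus strand) was listed at 0 in all 9 libraries. A floor of 3 fragments over a group allows up to 131.1, 83.8 and 122.2 FPKM at 0, 5 and 10 µM. For comparison, the control mean of *ANPEP* was 1070 FPKM. Thus no fragment of the transporter was read at either dose, and a level below those floors would not be detectable at this depth. The floors cover counting error only, and an exact 0 in such files can also be a failed estimate.

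**Figure D3:**
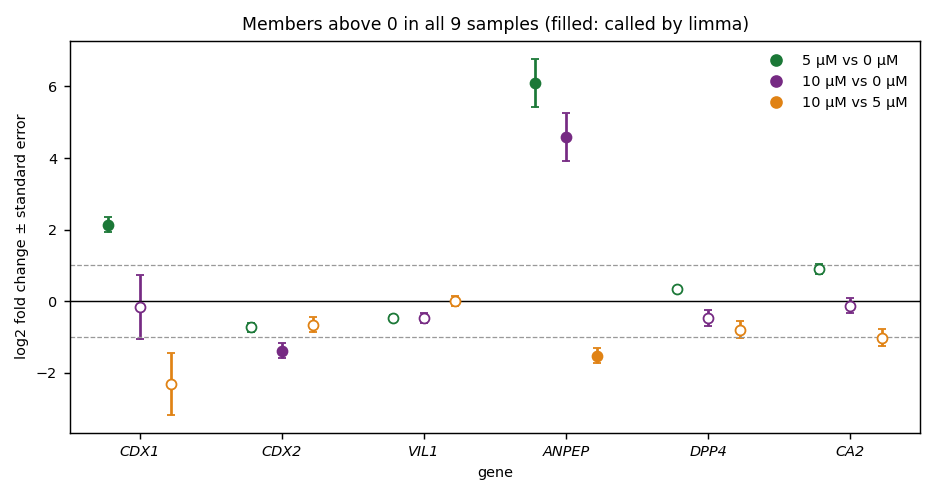
Log2 difference in log2(FPKM + 1) (vertical axis) with its standard error for the 6 members above 0 in every library, in 3 comparisons. Filled points were called by limma and dashed lines mark 1 and -1, and *ANPEP* alone is filled in all 3 comparisons (6.11, 4.59 and -1.52).

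Other genes of the absorptive cell were read in 6 lists by role, to see where the members stand among genes of like function. Of 16 further hydrolases, brush border enzymes together with other alkaline phosphatases, 6 were called up at 5 µM and none down. The median log2 difference of the list was 2.05, and of all genes 14.1% were called up and 2.17% down. Called up were *MME*, *MEP1B* and *NAALADL1*, and the alkaline phosphatases *ALPL*, *ALPP* and *ALPPL2*, which are not the intestinal form. Of 15 alternative fits, the call was lost in 10 for *MME*, 7 for *MEP1B* and 2 for *ALPP*, and in none for *ALPL* and *NAALADL1*. None was called at 10 µM against the control. The placental-like phosphatase gene *ALPPL2* had 1838, 1328 and 1252 FPKM in the control and 12182, 9992 and 16582 at 5 µM (log2 difference 3.12, SE 0.32, adjusted p = 0.000854). It was lower again at 10 µM, with 3287, 5492 and 2423 FPKM (-1.84 against 5 µM, SE 0.39, adjusted p = 0.0393), a call lost in 7 alternative fits. *ALPL*, the tissue-nonspecific phosphatase, was listed at 0 in the control and had a mean of 2555 FPKM at 5 µM, from 56 fragments. The highest of the list in the control, *ENPEP* (glutamyl aminopeptidase), was at a mean of 5214 FPKM there and 3715 at 5 µM (log2 difference -0.48, adjusted p = 0.19). Sucrase-isomaltase, *SI*, and lactase, *LCT*, were not called. Their means were 1031, 975 and 1057 FPKM for *SI* and 265, 314 and 248 FPKM for *LCT* at 0, 5 and 10 µM.

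Of 14 genes of microvillus structure, 3 were called up and 4 down at 5 µM, with a median of -0.56, beside 14.1% of all genes up and 2.17% down. The protocadherin *CDHR2*, part of the adhesion links between microvillus tips, had 11556, 11200 and 10088 FPKM in the control and 111022, 86732 and 103342 at 5 µM (log2 difference 3.19, SE 0.13, adjusted p = 0.000108). At 10 µM it had 56101, 55280 and 38198 FPKM, still above the control (2.17, adjusted p = 0.00398). The actin bundler *ESPN* (3.24) and the brush border myosin *MYO1A* (1.99) also rose at 5 µM, and both remained called at 10 µM (2.27 and 2.09). In contrast, *ANKS4B* (-2.04), *MYO7B* (-1.73), *USH1C* (-1.12) and the fimbrin *PLS1* (-1.10) fell at 5 µM. *CDHR2*, *USH1C*, *ANKS4B* and *MYO7B* encode proteins of the same intermicrovillar adhesion complex, so these 4 moved in both directions. At 10 µM the counts were 3 up and 3 down (4.07% and 3.4% of all genes), *USH1C* no longer being called. *PLS1* was the 1 gene of the list whose call against the control was lost in some fits, in 1 of 15 at 5 µM and 4 at 10 µM. *EZR* (ezrin), the highest of the list, was at a mean of 2168420 FPKM in the control and 1444980 at 5 µM (-0.58, adjusted p = 0.00841).

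Transporters and channels gave 8 called up and 1 down of 21 tested at 5 µM, with a median of 1.56, beside 14.1% and 2.17% of all genes. The sulfate transporter *SLC26A2*, a relative of *SLC26A3*, went from a mean of 6882 to 30123 FPKM (log2 difference 2.12, SE 0.19, adjusted p = 0.000561). The peptide transporter *SLC15A1* had 0, 0 and 123 FPKM in the control and 5656, 5837 and 4067 at 5 µM, from 1 and 142 fragments over the groups. The water channel *AQP3* rose from a mean of 434425 to 1278270 FPKM (1.56) and was lower again at 10 µM than at 5 µM (-1.15, adjusted p = 0.013). That second call was lost in 5 of 15 alternative fits, among them median-of-ratios scaling (-0.95) and the fits without any 1 of the 5 µM libraries. The remaining calls up were *SLC2A2*, *SLC2A5*, *SLC6A19*, *SLC7A9* and *SLC10A2*, and *SLC10A2* rests on 6 fragments at 5 µM. The calls of *SLC2A2* and *SLC2A5* were lost in 8 and 5 of 15 alternative fits, and those of *SLC6A19*, *SLC7A9* and *SLC10A2* in 1 each. In 1 further fit *SLC6A19* (16 fragments at 5 µM) and *SLC10A2* were not tested. The chloride channel *CFTR* fell at 5 µM (-1.26, adjusted p = 0.000335) and at 10 µM (-1.22, adjusted p = 0.0229), the only gene of the list called at 10 µM against the control. That 10 µM call was lost in 7 of 15 alternative fits, among them median-of-ratios scaling (-0.97), under which 2 genes of the list were called up. *ATP1B1*, a sodium pump subunit and the highest of the list, had means of 2777440, 2622050 and 1994170 FPKM at 0, 5 and 10 µM.

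Among carbonic anhydrases and surface colonocyte genes, 7 of 17 tested were called up and 2 down at 5 µM, with a median of 1.3, beside 14.1% and 2.17% of all genes. Of the 7, the hormones of the guanylate cyclase C pathway had the highest levels at 5 µM. *GUCA2A* (guanylin) had 2109, 8382 and 8891 FPKM in the control, 109616, 132889 and 95907 at 5 µM, and 34855, 49365 and 30992 at 10 µM. It was called up at both doses (4.37 and 2.80, adjusted p = 0.00174 and 0.0226) and down from 5 to 10 µM (-1.57, adjusted p = 0.00963), though the calls at 10 µM, against the control and against 5 µM, were lost in 3 and 4 of 15 alternative fits. *GUCA2B* (uroguanylin) followed the same course (3.27, 1.84 and -1.43, adjusted p = 0.000202, 0.0107 and 0.0107), and its call from 5 to 10 µM was lost in 3 of 15 alternative fits. *BEST4*, *CEACAM7*, *CA4*, *OTOP2* and *TRPM6* were the others called up at 5 µM, the last 3 on 14, 8 and 12 fragments. With a minimum of 10 estimated fragments, 4 of the list were called up, and the call of *CA4* was lost in 9 of 15 alternative fits. *CA12*, a membrane-bound carbonic anhydrase, fell at 5 µM (-1.19) and 10 µM (-1.34) from a control mean of 2741130 FPKM, so that *CA12* and the member *CA2* differed in direction at 5 µM. *SELENBP1* fell as well (-1.57 and -1.04), and its 10 µM call was lost in 3 of 15 alternative fits, among them median-of-ratios scaling (-0.79). *TSPAN1*, the highest of the list, was -0.66 at 5 µM, and *MS4A12* was listed at 0 in every library. At 10 µM against the control 2 of 16 tested were called up and 2 down, beside 4.07% and 3.4% of all genes. From 5 to 10 µM 3 of 17 tested were called down (4.82% of all genes). Among these was *OTOP2*, on 8 fragments at 5 µM, whose call was lost in 4 of 15 alternative fits.

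Of 21 transcription factors of the intestinal epithelium, 2 were called up and 5 down at 5 µM, with a median of -0.71, against 14.1% of all genes called up and 2.17% down. *HNF4A*, a nuclear receptor that drives enterocyte genes, had 306262, 279943 and 284235 FPKM in the control and 131331, 116058 and 145260 at 5 µM (-1.15, SE 0.10, adjusted p = 0.000477). At 10 µM it had 106997, 157377 and 73050 FPKM (-1.44, SE 0.26, adjusted p = 0.0172), a call lost in 4 of 15 alternative fits. *HNF4G* (-1.59 and -1.86), *ELF3* (-1.21 and -1.23) and *PPARG* (-1.11 and -1.08) fell at both doses, beside the fall of *CDX2*. *HES1* (-1.06) and *NR5A2* (-1.59) were called at 10 µM, where 6 of 21 were down and none up (3.4% and 4.07% of all genes). With median-of-ratios scaling 3 of 21 were down at 10 µM, and *ELF3* (-0.98), *HES1* (-0.81) and *PPARG* (-0.84) were no longer called. Over all 15 alternative fits these calls were lost in 1, 5 and 3. *GATA5* and the secretory factor *ATOH1* rose at 5 µM, *GATA5* from a mean of 149.9 to 2239 FPKM (3 and 50 fragments over the groups, with 2 control libraries at 0) and *ATOH1* by a log2 difference of 1.17. These calls were lost in 8 and 4 of 15 alternative fits, and both were lost without control replicate 2, 5 µM replicate 1 or 5 µM replicate 3. *KLF5*, the highest of the list, was -0.77 at 5 µM (adjusted p = 0.00223).

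Of 14 genes of lipid handling, only *PLIN2*, which coats lipid droplets, was called up at 5 µM, from a mean of 56739 to 124163 FPKM (1.14, SE 0.14, adjusted p = 0.00144), beside 14.1% of all genes. It was lower at 10 µM than at 5 µM (-1.66, adjusted p = 0.0119), a call lost in 4 of 15 alternative fits. *FABP2*, the intestinal counterpart of *FABP1*, had 45 fragments over the 5 µM libraries and was not called. *ACSL5*, the highest of the list, was at -0.69 at 5 µM (adjusted p = 0.00228).

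**Figure D4:**
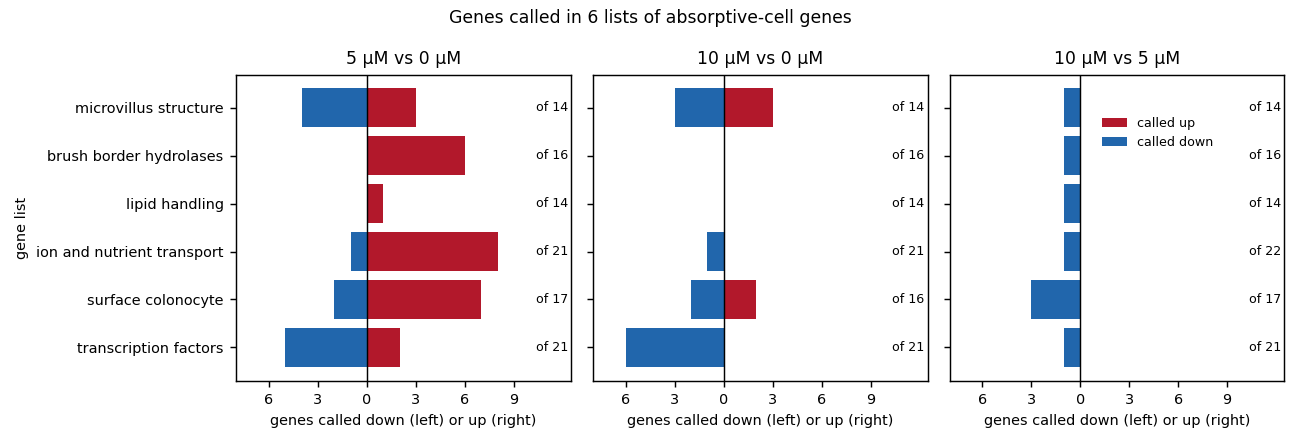
Genes called up (right, red) and down (left, blue) in 6 lists of absorptive-cell genes, with the number tested at the right edge, for 3 comparisons. Calls up outnumber calls down in hydrolases (6 and 0), transport (8 and 1) and surface colonocyte genes (7 and 2) at 5 µM. They do so over all tested genes as well (14.1% up and 2.17% down). Transcription factors have 5 and 6 calls down at 5 and 10 µM against the control, beside 2.17% and 3.4% of all genes.

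Genes used as markers of other cells moved with the 5 µM group as well. Of 11 markers of fibroblasts, endothelium and leukocytes, picked as ones a line should lack, 8 were called up at 5 µM (14.1% of all genes were). That count was between 5 and 9 over the other settings. The calls of *COL1A2* and *PECAM1* were lost in 7 and 5 of 15 alternative fits. The summed level was between 149744 and 159690 FPKM in the control, 745079 and 788486 at 5 µM, and 238524 and 399717 at 10 µM. Most of that sum was *CD68*, at a control mean of 125260 FPKM. This gene stood above the median gene of every control library, so the untreated line did not lack it. *CDH5* and *CD3E* were listed at 0 in the control and rest on 9 fragments each at 5 µM. *PTPRC* was at 0 in 2 control libraries and at most 983 FPKM at 5 µM. *LUM* and *COL1A1* were read in every control library (means of 19747 and 6567 FPKM) and rose at 5 µM (1.22 and 2.53), as did *PECAM1* (1.59) and *VWF* (2.78). Of the 12 epithelial markers, 3 were called down and 1 up at 5 µM (2.17% and 14.1% of all genes). *KRT8* (-1.65), *KRT18* (-1.64) and *KRT19* (-1.79) fell and *CEACAM5* rose (1.59). The calls of *KRT8* and *KRT18* were lost without the filter on low values. At 10 µM against the control, *KRT19* (-1.54) and *KRT20* (-1.31) were called down (3.4% of all genes), calls lost in 6 and 7 of 15 alternative fits. The part of these shifts in the members' values was not tested.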

How the data were processed

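Paired-end RNA-Seq was carried out on 9 HT-29 cultures, 3 each at 0, 5 and 10 µM 5-Aza, grouped by the sample labels. Reads were filtered by the authors (FASTX-Toolkit), TopHat 2.0.1 placed them on hg19, and Cufflinks 1.3.0 turned them into FPKM, so the deposited files hold FPKM per gene and no counts. The annotation they used and the library strand are not given in the sources used here. The members and the lists were chosen with earlier results of these data known.

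Values of repeated symbols were summed and tested as log2(FPKM + 1) in limma 3.58.1 under R 4.3.3 (lmFit, eBayes with trend), on the 6 samples of each comparison with no replicate block. Genes reaching 10 FPKM in either group entered, a limit below the value of 1 fragment of any member. Adjusted p-values (Benjamini-Hochberg) cover all tested genes. The labels call the replicates biological, so p-values measure the spread between cultures. No planned count test was run, since the files hold FPKM.

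Fragments were estimated from steps in low values. At 11 microRNA hairpins of 110 nucleotides, 39 of 39 values were whole multiples of 1 step per library (tolerance 0.01). The step followed annotated length for longer genes (459 of 729 genes within 15%), which gave fragments for 17736 genes. Members of up to 1000 fragments with a value above 0 were read from their own steps. *VIL1*, *DPP4* and the floors of *SLC5A8* were read from length. Depth limits each value that rests on few fragments, and these are estimates, not counts. Member values were read as whole within a tolerance of 0.06, which 1 *ANPEP* value did not meet. Positions are GENCODE (GRCh37) and promoters are RefSeq. Named genes are the members, the called list genes with the 3 largest differences in each direction per comparison, the highest list gene in the control, and the 3 genes most like *CDX2*. Of the called list genes, 1 is not reported here. Other list genes named were chosen after their values were seen. The scripts were tested on simulated data. Alternatives were pseudocounts of 0.1 and 1000, other filters, scaling, largest entry of repeated symbols, all 9 samples in one fit, a replicate block, and each replicate left out.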

Additional observations from a re-analysis of the deposited data

How the results depend on the processing

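At 5 µM vs. 0 µM, 5 members were up and 2 down with no fold change threshold (4263 and 3553 of all genes). Leaving out 1 library gave 3 to 4 members up and 0 to 1 down (2388 to 3027 and 406 to 507 of all genes). At 10 µM vs. 0 µM, 1 member was up with a pseudocount of 1000 (859 of all genes). Leaving out 1 library gave 0 to 1 members down (165 to 1500 of all genes), the 0 coming without control replicate 2. At 10 µM vs. 5 µM, 3 members were down (*ANPEP*, *ALPI* and *CA2*) when at least 10 estimated fragments were required (831 of all genes). The same 3 were down when all 3 replicates of a group had to reach 10 (1089 of all genes) and with a pseudocount of 1000 (1041). Leaving out 1 library gave 0 to 4 members down (176 to 1873 of all genes), the 0 coming without 5 µM replicate 1 or 3. The 10 µM vs. 0 µM difference changed sign for *CDX1* (0.07 with median-of-ratios scaling, 0.02 with a pseudocount of 1000, 0.92 without 10 µM replicate 1), for *CA2* (0.12 with median-of-ratios scaling, 0.06 without 10 µM replicate 1) and for *FABP1* (1.5 and 1.95 without control replicate 1 or 3, 3.63 without 10 µM replicate 1). Leaving out other libraries gave values down to -0.77, -0.33 and -4.55 for these 3 genes. The cause was not tested. Of 423 member differences over all alternatives, 390 kept direction and side of the threshold, 19 passed only in the alternative and 6 only in the reported fit.

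The replicate block left the members at 3 up and 0 down, 2 up and 1 down, and 0 up and 1 down in the 3 comparisons, and it gave 11 genes up and 407 down of all genes from 5 to 10 µM, against 26 and 969. Same-numbered samples did not deviate together (r between -0.31 and 0.22 over 9 pairs, and 2 of 9 samples correlated best with their own number). No pairing by number was seen in these values, and with 3 cultures per group they cannot show how the cultures were set up. Over the other settings, all genes called down at 5 µM ranged from 372 to 3553 (436 reported) and called up at 10 µM from 488 to 1174 (771 reported) and down from 271 to 1837 (644 reported, and 165 to 1500 with 1 library left out). Transcription factors down at 10 µM ranged from 3 to 12 when 1 library was left out (6 reported), and hydrolases up at 5 µM from 3 to 6. Depth limits *FABP1*, *SLC26A3*, *SLC5A8* and, at 10 µM, *CDX1* and *ALPI*.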

Other observations

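Genes of the other intestinal lineages were read beside the absorptive members. Of 16 markers of goblet, Paneth and enteroendocrine cells tested at 5 µM, 7 were called up and none down, with a median log2 difference of 2.5, beside 14.1% of all genes called up and 2.17% down. *SPINK4* and *ZG16*, both goblet cell genes, had means of 2175 and 0 FPKM in the control and 166933 and 11117 at 5 µM. *DEFA6*, a Paneth cell defensin, was listed at 0 in the control and had 62 fragments over the 5 µM libraries. *REG4* rose from a mean of 8062 to 113241 FPKM (3.87, SE 0.29, adjusted p = 0.000343 in limma) and stayed up at 10 µM (3.65, adjusted p = 0.00267). *FCGBP*, *CHGB* and *NEUROD1* were the other calls up, *NEUROD1* on 8 fragments. At 10 µM against the control, 5 of 15 tested were up (4.07% of all genes), and *MUC2* (-1.22) and *AGR2* (-1.23) were down (3.4%). Both calls down were lost with median-of-ratios scaling (-0.98 and -0.99) and without control replicate 2, and over all 15 alternative fits they were lost in 2 and 7. The calls of *SPINK4* against the control were lost in 6 of 15 alternative fits at 5 µM and 7 at 10 µM. From 5 to 10 µM 4 of 16 were called down (4.82% of all genes). *LYZ*, the highest of the list in the control at a mean of 8690570 FPKM, was -0.99 at 5 µM.

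Of 6 stem cell markers, 5 were tested and *OLFM4* was listed at 0 in all 9 libraries. *RNF43*, the highest of them, was at the limit of 2-fold at 5 µM (-1.02, SE 0.06, adjusted p = 0.000238), and its call was lost with median-of-ratios scaling (-0.98), without control replicate 3 and without 5 µM replicate 2. *LGR5* was called down at 10 µM, against the control (-2.12, adjusted p = 0.0426) and against 5 µM (-2.45, adjusted p = 0.0336), on 42 fragments over the 10 µM libraries, calls lost in 7 and 6 of 15 alternative fits.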
